A study of Mus musculus with 5 samples.

Results

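The genes described here encode subunits of TFIID, a general transcription factor of RNA polymerase II, in mouse embryo cells treated with interferon-alpha. The members were the listed symbols Tbp, Taf1, Taf2, Taf3, Taf5, Taf6, Taf7, Taf8, Taf10 and Taf12, each taken from a row of the value table whose annotation gave that single symbol. All 10 had 1 such row, of 17756 genes measured in this way. Taf5 was chosen by its large difference between the groups on these same arrays, so its values are given as a description with no test. The other 9 subunits were listed as members of the same complex, and the question was whether Taf5 differed alone or together with them.

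The study compared cells of C57Bl/6 mouse embryos at E11.5. They came from the aorta-gonad-mesonephros region, or AGM, where the first blood stem cells form. The sorted cells were positive for VE-cadherin (VE), an endothelial junction protein, and for CD45, a protein of white blood cells. Of the 5 arrays, 3 (IFNa replicates 1, 2 and 3) were from cells that received interferon-alpha (IFNa) for 4 hours at 0.5 ng/ml. The other 2 (vehicle replicates 2 and 3) were from cells that received vehicle for the same 4 hours. All cells were cultured after the sort, and their RNA was amplified before labelling with biotin. The labels call the replicates biological but do not say how many embryos each holds. The sort takes a mixed population, although the labels name hematopoietic stem cells. Signals are log2 values made with RMA, so a difference of 1 is a 2-fold change. In such bulk samples, fewer cells of a type and less RNA per cell cannot be told apart.

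TFIID consists of the TATA-binding protein TBP and a set of TBP-associated factors, the TAFs. It binds core promoters and is an early step in the assembly of the polymerase at the start site of a gene. TAF5 carries WD repeats and is part of the scaffold of the complex together with TAF4, TAF6, TAF9 and TAF12. Most of the scaffold subunits pair with each other through histone-fold domains. Several TAFs, among them TAF10 and TAF12, also belong to SAGA, a coactivator complex that modifies histones and in which TAF5L and TAF6L stand in for TAF5 and TAF6.

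Taf5 was far higher in IFNa-treated cells. Its signal was 12.2 on IFNa replicate 1, 12.4 on IFNa replicate 2 and 12.0 on IFNa replicate 3, against 7.25 on vehicle replicate 2 and 7.02 on vehicle replicate 3. The 3 IFNa arrays lay within 0.46 of each other and the 2 vehicle arrays within 0.24. The groups were far apart compared with their spread, which the choice of Taf5 by its difference favours, and this was not tested. The means were 12.2 ± 0.23 (SD, n = 3) and 7.13 ± 0.17 (SD, n = 2), a difference of 5.08 ± 0.38 (SE), or 33.9-fold. When single arrays were left out, the Taf5 difference stayed between 4.97 and 5.20. The row is probe set 1435474_at, and the table held no other row of the symbol Taf5, so the value rests on a single probe set.

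None of the other 9 listed subunits passed the threshold, a Benjamini-Hochberg adjusted p under 0.05 in limma over all 17756 genes. With Taf5, 1 of the 10 members was called, against 0.135% of all genes. Taf5 put itself into that count, since it was listed for this difference. The count was 0 of 10 with any of the 3 IFNa arrays left out, with values floored at the 20th percentile and with the replicate number as a block. It was 1 of 10 with either vehicle array left out. Among the other 9, 2 had an unadjusted p under 0.05 (10.0% of all genes), Taf7 and Taf12, and they lay in opposite directions. The differences of the 9 ran from -2.53 to 1.27, with 3 above 0 and 6 below 0. Their median was -0.83, against -0.04 over all genes, and it ranged from -1.16 to 0.15 with each array left out. The 95% intervals of all 9 had their upper bounds below the difference of Taf5, the highest being 2.35 for Taf12. Taf5 was listed for its large difference, and only 4.55% of all genes differed by over 2 in either direction. Upper bounds below Taf5 are thus a description and were not tested. A miss of the threshold does not show that a subunit did not differ. The interval lay wholly within 1 on the log2 scale either way for 1 subunit, Tbp.

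**Figure D1:**
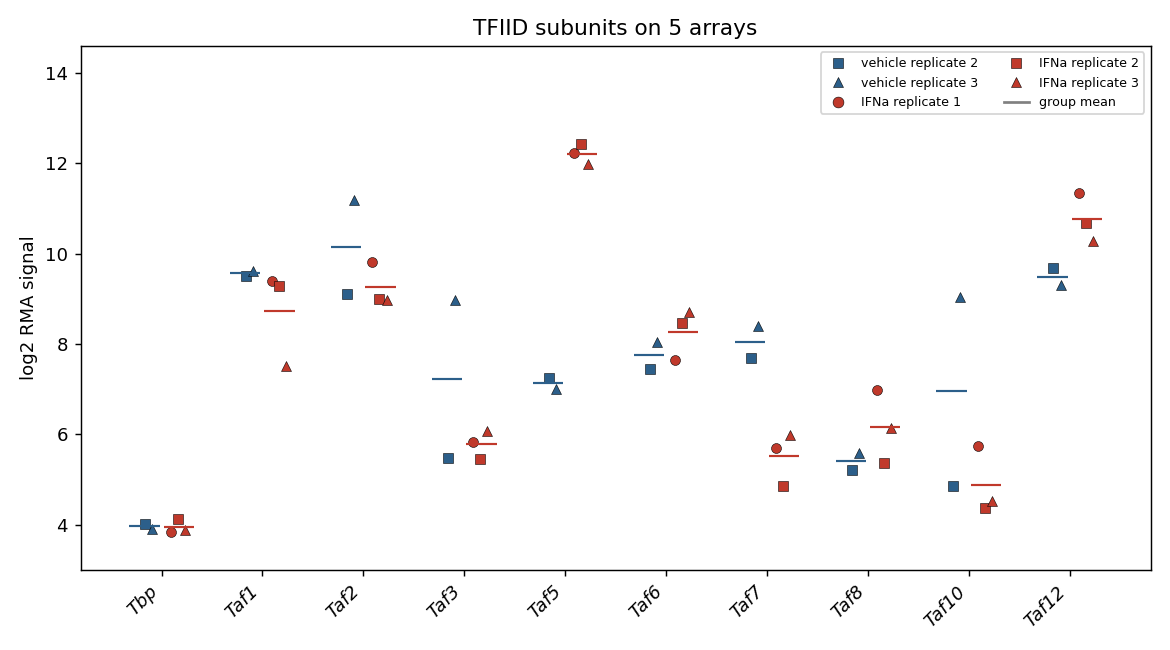
Log2 RMA signal of each listed TFIID subunit on the 5 arrays, with vehicle arrays in blue, IFNa arrays in red, a symbol for each replicate number and lines at the group means. Taf5 lies near 12 on the IFNa arrays and near 7 on the vehicle arrays, whereas the groups of 6 subunits overlap; levels of different probe sets cannot be set against each other.

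Among the subunits that contact the promoter, Tbp, which binds the TATA box, read 3.85, 4.13 and 3.89 on IFNa replicates 1, 2 and 3, and 4.03 and 3.90 on vehicle replicates 2 and 3. The groups overlapped and all 5 arrays lay close together. The difference was -0.0069 ± 0.27 (SE), with a 95% interval of -0.65 to 0.63, and it lay above 0 with median centring and with repeated quantile normalization. Its signal lay not far above 3.35, the 20th percentile of all values, where a probe set can show little of a fall.

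Taf1, the largest subunit, which reads acetylated histones through bromodomains, read 9.41, 9.28 and 7.52 with IFNa and 9.51 and 9.62 with vehicle. All IFNa arrays were below both vehicle arrays, but replicates 1 and 2 by little and replicate 3 by much. The difference was -0.83 ± 0.68 (adjusted p = 0.784, limma), and -0.22 without IFNa replicate 3. Taf7, whose protein binds TAF1 and holds back its acetyltransferase activity, read 5.70, 4.87 and 5.99 with IFNa and 7.70 and 8.40 with vehicle. The groups were separate, and the gap between them was wider than the range within either group. The difference was -2.53 ± 0.54, the lowest of the 9, with an interval of -3.82 to -1.23 and an adjusted p of 0.226 in limma. It lay between -2.88 and -2.18 with each array left out. Taf2, which contacts the initiator element around the start site, read 9.81, 8.998 and 8.976 with IFNa and 9.11 and 11.2 with vehicle. The vehicle arrays were thus 2.08 apart. The difference of -0.89 ± 0.70 (adjusted p = 0.764, limma) became 0.15 without vehicle replicate 3.

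The other listed subunits carry histone folds. Taf12, whose protein pairs with TAF4, read 11.3, 10.7 and 10.3 with IFNa and 9.68 and 9.30 with vehicle. It was the only listed subunit besides Taf5 that was higher on every IFNa array. The difference was 1.27 ± 0.45, or 2.41-fold, with an interval of 0.19 to 2.35 and an adjusted p of 0.423 in limma. It was 0.99 to 1.51 with each array left out.

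Taf6, whose protein pairs with TAF9 and lies next to TAF5 in the scaffold, read 7.66, 8.47 and 8.71 with IFNa and 7.46 and 8.05 with vehicle. The groups overlapped, and the difference was 0.53 ± 0.55 (adjusted p = 0.849, limma) with an interval of -0.80 to 1.85. Taf8, which brings TAF10 into the complex, read 6.97, 5.38 and 6.13 with IFNa and 5.22 and 5.598 with vehicle, a difference of 0.75 ± 0.56 (adjusted p = 0.748, limma). Here IFNa replicate 2 lay between the vehicle arrays. The probe set of Taf8, 1416451_s_at, is of a kind that can match several transcripts.

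Taf10, the partner of TAF8 and a subunit of both TFIID and SAGA, read 5.74, 4.38 and 4.52 with IFNa and 4.86 and 9.05 with vehicle. Vehicle replicate 3 stood 4.19 above vehicle replicate 2, which lay among the IFNa arrays. The difference of -2.08 ± 1.17 (adjusted p = 0.642, limma) was -4.17 without vehicle replicate 2, and 0.014 once vehicle replicate 3 was left out. Taf3, which binds a methylated histone tail through a PHD finger and pairs with TAF10, had the same shape, at 5.84, 5.46 and 6.07 with IFNa and 5.48 and 8.98 with vehicle. Its difference of -1.44 ± 0.98 (adjusted p = 0.719, limma) was -3.19 without vehicle replicate 2, and 0.32 once vehicle replicate 3 was left out. The lower mean of Taf2, Taf3 and Taf10 with IFNa therefore rested on vehicle replicate 3.

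Counted by overlap, 3 of the 9 subunits other than Taf5 had groups that did not overlap, namely Taf12, which was higher with IFNa, and Taf1 and Taf7, which were lower. Over all genes the groups did not overlap for 25.6%. The vehicle arrays differed by over 2 on the log2 scale for 3 of the 10 members (Taf2, Taf3 and Taf10), against 7.23% of all genes. The median gap between the vehicle arrays was 0.48 for the 10 members and 0.48 for all genes, and the median range of the IFNa arrays was 1.05 and 0.71. The differences between groups exceeded 2 in either direction for 3 members (Taf5, Taf7 and Taf10), against 4.55% of all genes. Taf5 put itself into that count, since it was listed for its difference. The difference of Taf10 was 0.014 without vehicle replicate 3, so its place in the count rested on that array.

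**Figure D2:**
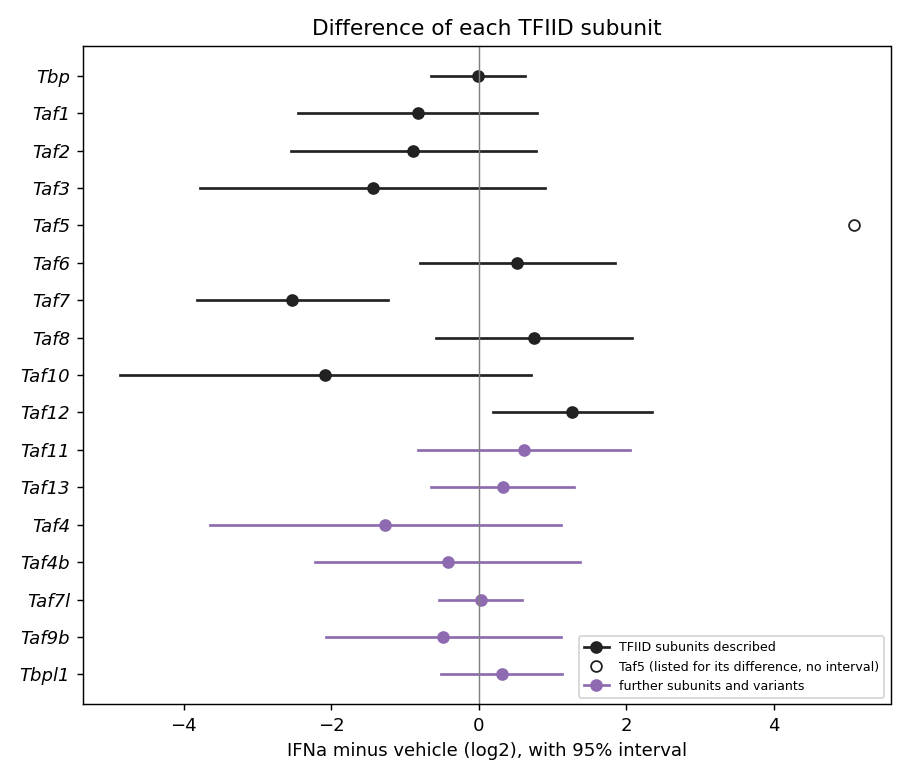
Difference between IFNa and vehicle on the log2 scale (points) with its 95% interval from limma (lines) for the listed TFIID subunits and for further subunits and variants; Taf5 is an open point with no interval because it was listed for its difference. Taf5 stands at 5.08, and the highest upper bound of another listed subunit is 2.35.

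**Figure D3:**
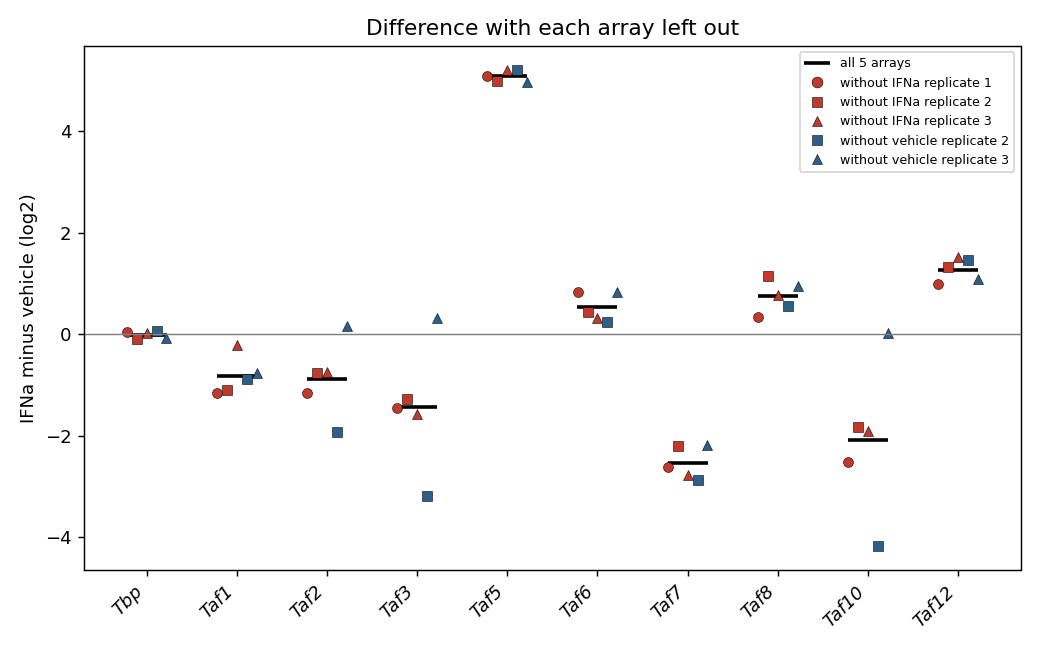
Difference between IFNa and vehicle on the log2 scale for each listed subunit with all 5 arrays (bars) and with each array left out (symbols, coloured by the group of the array left out). Taf5 stays between 4.97 and 5.20, while Taf2, Taf3 and Taf10 come to lie above 0 without vehicle replicate 3.

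Further TFIID genes that were not among the members also stayed below the threshold. Of 7 measured subunits and variants, limma called 0 and put 0 at an unadjusted p under 0.05. In 0 of the 7 were the groups separate, and the median difference was 0.03. Taf4, a scaffold subunit, differed by -1.27 ± 1.00, and by -2.14 to -0.39 with each array left out. Its variant Taf4b differed by -0.42 ± 0.75. Taf11 and Taf13, which pair with each other near TBP, differed by 0.62 ± 0.60 and 0.33 ± 0.40. Taf9b, a close relative of Taf9, differed by -0.48 ± 0.67, and Taf7l, a relative of Taf7 best known from germ cells, by 0.03 ± 0.23 at a signal below 3.35 on every array. Tbpl1, a relative of TBP, differed by 0.31 ± 0.34. The adjusted p values of these 7 ran from 0.767 to 0.987 in limma.

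The wider initiation machinery was examined through 6 lists with 89 measured genes, including these 7. Limma called 0 of the 89 (0.135% of all genes) and put 6 at an unadjusted p under 0.05 (10.0% of all genes). The groups did not overlap for 12 higher and 9 lower genes, 23.6% of the 89, against 25.6% of all genes. Of 16 SAGA genes 0 passed and the median difference was 0.10. Taf5l, the counterpart of Taf5 in SAGA, differed by 0.29 ± 0.71, with 8.27, 7.65 and 6.77 on the IFNa arrays and 6.47 and 8.08 on the vehicle arrays. Those groups overlapped. Taf6l differed by 0.67 ± 0.47. The SAGA gene with the smallest p was Tada1, an adaptor subunit, at -1.67 ± 0.69 (adjusted p = 0.494, limma).

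Of 16 genes of the other general factors, TFIIA to TFIIH, 0 passed and the median was -0.22. The smallest p belonged to Gtf2h4, a core subunit of TFIIH, which opens promoter DNA. It read 3.43, 4.07 and 4.24 with IFNa and 6.55 and 5.91 with vehicle, a difference of -2.32 ± 0.41 (adjusted p = 0.149, limma). Of 10 RNA polymerase II subunits 0 passed and the median was 0.53. Polr2d, which forms the stalk of the enzyme with Polr2g, read 9.32, 9.69 and 10.7 with IFNa and 7.09 and 6.88 with vehicle. Its groups were separate, with a difference of 2.92 ± 0.57 (adjusted p = 0.183, limma).

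Mediator, which links activators to the polymerase, had 31 measured genes, of which 0 passed, with a median of 0.49. Ccnc, the cyclin of its kinase module, differed by 3.12 ± 0.66 (adjusted p = 0.221, limma), and Med31 by 2.32 ± 0.56 (adjusted p = 0.264, limma). Of 9 TBP partners outside TFIID 0 passed, with a median of -0.29. Taf1c, a subunit of the TBP complex that serves RNA polymerase I, read 8.61, 9.09 and 9.57 with IFNa and 7.22 and 7.23 with vehicle, a difference of 1.87 ± 0.51 (adjusted p = 0.316, limma). The gene named for each list had the smallest p of its list, and Med31, Taf5l and Taf6l were added.

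**Figure D4:**
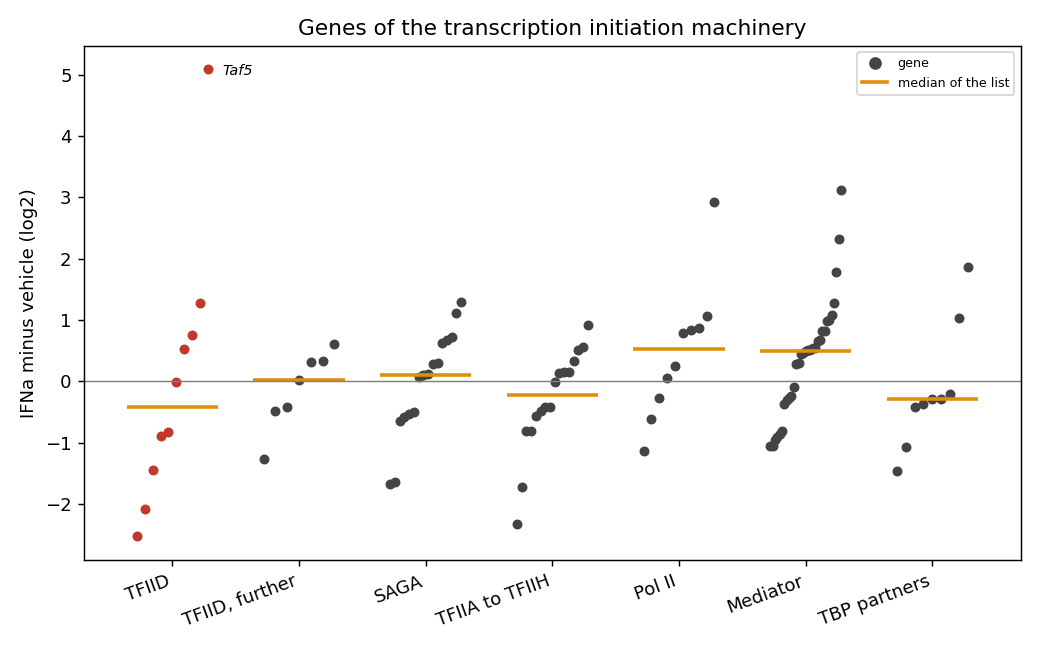
Difference between IFNa and vehicle on the log2 scale for each gene of the listed TFIID subunits (red) and of 6 further lists (grey), ordered by value within each list, with the median of each list in orange. Taf5 at 5.08 lies above every other gene shown, the next being Ccnc at 3.12. Taf5 was listed for its large difference, so its place is a description and was not tested.

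Among all 17756 genes, those with the profiles nearest to that of Taf5 were not TFIID subunits. The nearest of so many genes are likely to lie closer than the nearest of 9 listed subunits, so this does not set the complex apart. Likeness was measured as the root mean square difference over the 5 arrays after each gene was centred on its own mean. The 5 nearest genes were Abhd4, a lipid hydrolase (0.25), Nt5dc1 (0.61), Fat4, an atypical cadherin (0.63), Slfn3 of the Schlafen family (0.70) and Vps52, a vesicle-tethering subunit (0.75). The differences of the 5 genes were 4.64, 4.21, 4.91, 5.14 and 5.35, as the choice by likeness to Taf5 implies. Fat4 read 1.61 and 1.43 on the vehicle arrays, below the 20th percentile, and its difference was 3.08 with values floored there. The nearest listed subunit was Taf12 at 1.89, rank 809 of all genes, and the farthest were Taf7 at 3.78 and Taf10 at 3.81. As a description, this measure follows the size of the difference as well as its shape.

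The genes next to Taf5 on chromosome 19 did not share its difference. By gene order in the RefSeq table of GRCm38.p6, the measured genes on one side were Nt5c2, Ina and Pcgf6, and on the other Atp5md, Pdcd11 and Calhm2. Atp5md, which encodes a small subunit of mitochondrial ATP synthase and whose span overlaps the end of Taf5 by 9 bases, read 11.81, 11.54 and 11.62 with IFNa and 12.0 and 11.6 with vehicle. Its difference was -0.13 ± 0.28, with an interval of -0.78 to 0.53. Pcgf6, a Polycomb group gene on the other side, was lower on every IFNa array, at 4.43, 4.48 and 4.45 against 5.64 and 7.06. Its difference was -1.90 ± 0.49 (adjusted p = 0.298, limma), and -1.18 without vehicle replicate 3. Ina, a neurofilament gene, differed by -2.02 ± 0.40 with all IFNa arrays far below 3.35, and by -0.31 with values floored there. Calhm2, a channel gene, differed by -0.81 ± 0.42, and by -0.42 without vehicle replicate 2. Nt5c2, a nucleotidase, differed by 0.52 ± 0.58 and Pdcd11, a ribosome assembly gene, by -0.48 ± 0.68. None of the 6 neighbours passed in limma with all arrays, although Ina did at -2.73 without vehicle replicate 2 (adjusted p = 0.0105, limma). The highest upper bound of their intervals was 1.89, for Nt5c2. Taf5 was listed for its large difference, so the gap between it and its neighbours is a description and was not tested.

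**Figure D5:**
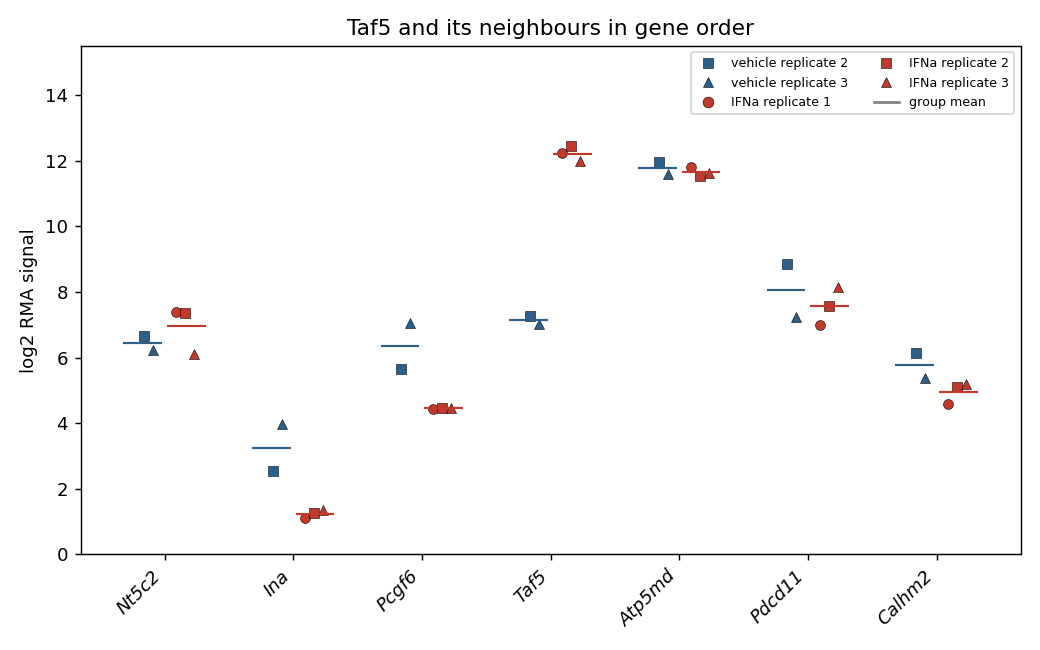
Log2 RMA signal of Taf5 and of the 3 measured genes on each side of it, in gene order, on the 5 arrays (vehicle blue, IFNa red, lines at the group means). Of these 7 genes, only Taf5, which was listed for its difference, has all IFNa arrays above both vehicle arrays. Ina, Pcgf6 and Calhm2 have them below, and over all genes the groups did not overlap for 25.6%.

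The promoters of Taf5 and Taf12, the listed subunits that were higher on every IFNa array, are shown as the 250 bases before the start of the gene, 5′ to 3′, from RefSeq (GRCm38.p6). They lie at chr19:47067498-47067747 and chr4:132274125-132274374, both on the plus strand. Capitals mark every match, on either strand, to one of 5 motifs: the TATA box TATAAA, the GC box GGGCGG, the ETS core TTCCGG, the core AANNGAAA bound by interferon regulatory factors (IRF), and the STAT site TTCNNNGAA.
Taf5: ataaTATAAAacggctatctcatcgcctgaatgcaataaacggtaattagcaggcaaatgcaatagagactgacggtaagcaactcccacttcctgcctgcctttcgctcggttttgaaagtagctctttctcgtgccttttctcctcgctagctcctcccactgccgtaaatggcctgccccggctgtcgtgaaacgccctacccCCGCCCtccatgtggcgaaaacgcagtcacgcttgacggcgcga
Taf12: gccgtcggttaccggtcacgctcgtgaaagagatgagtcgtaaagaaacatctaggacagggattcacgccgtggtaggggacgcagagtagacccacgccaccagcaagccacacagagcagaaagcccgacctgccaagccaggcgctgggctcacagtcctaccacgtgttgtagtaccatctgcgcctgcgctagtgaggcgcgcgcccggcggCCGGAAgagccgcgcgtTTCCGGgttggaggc

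Taf5 held a TATAAA whose first base lay 246 bases before the start, and a GC box at 44 bases before it. Taf12 held 2 ETS cores, at 32 and 15 bases before the start. Matches of different motifs did not overlap in these sequences, with 0 such cases. Neither held the IRF core or the STAT site in this window. Of the 17 measured TFIID genes, 14 had 17 promoters in the table, and Taf2, Taf7 and Taf4b did not. Among those 17 promoters, 11 held the GC box, 5 the TATA box, 5 the ETS core, 2 the IRF core (Taf8 and Tbpl1) and 1 the STAT site (Taf9b). Over all 32851 promoters of the same length the shares were 32.7% for the GC box, 12.4% for the TATA box and 12.0% for the ETS core, with 21.3% for the IRF core and 7.02% for the STAT site. A match is a description of the letters and does not show that a factor binds.

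The genes behind the sort were measured too. Ptprc, which encodes CD45, was lower on every IFNa array, at 5.85, 7.03 and 5.35 against 7.23 and 8.95, with a difference of -2.02 ± 0.75 (adjusted p = 0.441, limma). Cdh5, which encodes VE-cadherin, differed by -0.95 ± 0.96 (adjusted p = 0.839, limma), and its groups overlapped. In 6 lists of sort and cell type markers, 0 of 37 genes passed in limma, and 0 lay below 3.35 on every array. The mean of 8 macrophage markers per array was 11.3 to 11.6 with IFNa and 11.7 to 11.8 with vehicle. For 10 stem and progenitor markers it was 7.01 to 7.28 and 6.67 to 7.63, and for 6 endothelial markers 5.43 to 6.25 and 5.29 to 6.37. For 5 erythroid markers it was 4.72 to 6.87 and 6.42 to 7.44, and for 6 mesenchymal markers 4.74 to 6.31 and 5.28 to 6.11. These means hide single markers whose groups did not overlap. Of the stem and progenitor markers, Gfi1 (2.67 ± 1.39) and Spi1 (0.55 ± 0.44) were higher with IFNa and Cd34 (-2.61 ± 0.63) was lower. Endothelial Tek was higher (2.15 ± 0.72). Mesenchymal Pdgfra was higher (0.88 ± 0.47), and Tagln (-1.73 ± 0.50) and Acta2 (-2.04 ± 0.81) were lower. Over all genes the groups did not overlap for 25.6%. The mean of the 2 sort markers was 5.79 to 7.20 with IFNa and 7.94 to 8.22 with vehicle. The macrophage and sort marker means did not overlap between the groups, and their part in the TFIID values was not tested. Of the macrophage markers, Timd4 alone had separate groups. Without it, the mean of the other 7 was 12.15 to 12.21 with IFNa and 12.15 to 12.29 with vehicle, which overlap, with 3 of the 7 above 0. Across all genes, which are not independent replicates, arrays of 1 group correlated at 0.924 to 0.955 (Pearson's r) and arrays of different groups at 0.892 to 0.933.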

How the data were processed

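Affymetrix mouse arrays measured the 5 samples. The authors deposited log2 probe set signals, for which the submitters' processing notes name RMA with no version or settings. The lowest value was -1.95 and the highest 15.6. RMA seldom gives values below 0, so differences that reach the low end are of uncertain size. Detection calls were not used, and precision is limited by the number of arrays. Probe sets with names ending in _s_at or _x_at can match several transcripts. Among them were those of Taf8, Taf4, Taf1c, Acta2, Abhd4, Fat4, Vps52 and Polr3k. Of 20881 rows, 17838 had 1 gene symbol in the platform annotation. For the 81 symbols with several rows, the brightest row on average over the arrays was taken, leaving 17756 genes.

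Samples were grouped by their titles. IFNa was compared with vehicle in limma 3.58.1 (R 4.3.3) over all genes, with a mean-variance trend, two-sided tests and Benjamini-Hochberg adjustment. Errors on differences are moderated standard errors. The fit was also run on simulated normal values drawn independently for each gene. Such values cannot show how it behaves with correlated genes, a deviating array or values near the floor. Both groups have replicates numbered 2 and 3, but no label ties them, so they were not used as a pairing.

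The members, gene lists, motifs and tests were chosen with earlier results of these data known. The named genes were every TFIID gene with a row, the gene with the smallest p of each other initiation list, the 5 genes most like Taf5 and 3 measured neighbours on each side. Taf5l, Taf6l, Med31, Ccnh, Ptprc, Cdh5, Timd4, Cd34, Gfi1, Spi1, Tek, Pdgfra, Tagln, Acta2, Polr3a, Polr3g and Polr3k were named after their values were seen. Taf9 had no row of its own symbol alone. The alternatives were a floor at the 20th percentile, a filter on dim genes, no trend, quantile normalization, median centring, the mean of all rows, a replicate block, each array left out and an adjusted p under 0.1. The macrophage mean without Timd4 was added after its values were seen.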

Additional observations from a re-analysis of the deposited data

How the results depend on the processing

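The main count was 24 genes. A floor at the 20th percentile gave 0 in limma (1463 genes at an unadjusted p under 0.05), genes above the median level gave 1, limma without a trend 3 and an adjusted p under 0.1 gave 62. With the replicate number as a block, which leaves 1 residual degree of freedom, limma gave 0 (1441 at an unadjusted p under 0.05). Arrays with the same number deviated from their group means with correlations of 0.0024 and 0.043. The deviations of the vehicle arrays mirror each other, so these values cannot show whether arrays of the same number belong together. Leaving out each array gave 0 to 181 genes, and where a vehicle array was left out the remaining one is taken to vary as the IFNa arrays do. Of the TFIID subunits other than Taf5, 0 were called in each of these fits, with 9 tested, or 8 above the median level, where Tbp was left out, and the count for the initiation lists was 0 to 1 with each array left out (Ccnh, without vehicle replicate 3). The Taf5 difference was 4.97 to 5.20 and the median of the other 9 was -1.16 to 0.15 in those fits. Tbp, at -0.0069, was 0.14 with quantile normalization, 0.088 with median centring, 0.048 with the replicate block and -0.095 to 0.057 with each array left out. In the same refits Taf2 was -1.93 to 0.15, Taf3 -3.19 to 0.32, Taf10 -4.17 to 0.014, Taf4b -1.16 to 0.31, Taf7l -0.078 to 0.15, Taf9b -1.14 to 0.19, Taf11 -0.24 to 1.48, Taf13 -0.025 to 0.68, Atp5md -0.32 to 0.065 and Pdcd11 -1.28 to 0.33. With no change of sign, Taf1 was -1.16 to -0.22, Taf6 0.23 to 0.84, Taf8 0.34 to 1.14, Taf4 -2.14 to -0.39, Ina -2.73 to -1.31, Pcgf6 -2.61 to -1.18 and Calhm2 -1.19 to -0.42. Of 32 named genes 11 changed sign in some setting. The cause was not tested for these changes.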

Other observations

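Taf9, the partner of TAF6 in the scaffold, was measured only in a row whose annotation also names Gm12372. That row read 9.43, 9.06 and 8.99 with IFNa and 8.53 and 8.54 with vehicle, a difference of 0.62 with no overlap of the groups. Which of these genes gave the signal is unknown.

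Subunits of RNA polymerases I and III were looked at after Polr3a was seen to have a profile near that of Taf5. Of 13 measured genes limma called 0 (0.135% of all genes) and put 3 at an unadjusted p under 0.05 (10.0% of all genes). The groups did not overlap for 5 higher and 1 lower genes, against 25.6% of all genes. The median difference of the 13 was 0.31, with 11 above 0 and 2 below. Polr3a put itself into the counts of higher genes and of unadjusted p, since the list was taken up for its profile. Polr3a, the largest subunit of RNA polymerase III, read 11.3, 11.7 and 11.4 with IFNa and 8.42 and 6.32 with vehicle, a difference of 4.07 ± 0.66. Polr3g differed by -2.16 ± 0.56, and Polr3k by 1.99 ± 0.59.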
